A study of Mus musculus with 24 samples.

Results

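The contacts of a mutated Oct4 allele on chromosome 11 were compared between day 0 and day 3 in mouse embryonic stem cells of the line OCF2ΔOCT4/SOX2, here the OctSox line. The 4 libraries were taken by their labels from the 24 of the series, 2 at each day, and the labels call the 2 of a day biological replicates. Both groups share the genotype OCF2ΔOCT4/SOX2, a C57Bl/6 x 129/Sv background and passage 7, and they differ in the labelled day alone. The treatment that separates the days is not named in the labels, while the title of the series speaks of the onset of differentiation. The same viewpoint in the line OCF2ΔYY1, here the YY1 line, gave 4 more libraries that were used for comparison. Per the labels, the allele there is the YY1 one, so a comparison of the lines also compares 2 different mutated alleles. Each line is 1 genotype, and the labels do not say whether it is 1 clone. The counts hold no expression data, so the labelled cell type was not checked against markers.

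Oct4, the product of Pou5f1, is a transcription factor that keeps embryonic stem cells pluripotent and is lost as they differentiate. It binds DNA together with SOX2, and YY1 is a zinc finger factor that can hold distant DNA sites together. In 4C, chromatin is crosslinked and cut, and the cut ends that lie near each other in the nucleus are ligated. All products that contain one chosen fragment, the viewpoint, are then amplified and sequenced. The reads on another fragment come from its ligations to the viewpoint. Amplification can give many reads from a single ligation, so reads are not a count of ligations. Contacts of any viewpoint are most frequent beside it and fall with distance along the chromosome. In these libraries the enzyme was HindIII, and the unit of measurement was the read count of a HindIII fragment of chromosome 11 in the mouse assembly mm9. The labels describe the place as the region of an insertion.

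The viewpoint was taken as the fragment with the highest pooled count, 94813216 to 94826180, which is 12965 bp long and held 6940 counts over the 4 libraries, against 4029 for the second. It held 3965 and 95 counts on day 0 and 2709 and 171 on day 3, in the order replicate 1 and replicate 2. In replicate 2 it was not the highest fragment. The fragment from 94808527 held 162 counts there on day 0 and 205 on day 3, and that from 94850687 held 103 on day 0. The viewpoint fragment and its direct neighbours were not used further, which left 31862 of 31865 fragments. Outside these 3 fragments the libraries held 34764 and 6234 counts on day 0 and 64442 and 3212 on day 3, so that replicate 2 was the shallower library at both days. A count of 0 therefore allows a share of up to 0.00863% and 0.0481% on day 0 and of up to 0.00466% and 0.0934% on day 3. Of the 451 fragments within 1 Mb, 75.4% (95% Wilson interval 71.2 to 79.1) and 51.9% (47.3 to 56.5) had a count on day 0. On day 3 these shares were 80.5% (76.6 to 83.9) and 25.3% (21.5 to 29.5). Gene annotation was not used here, because no annotation of mm9 was at hand, and positions are given as the deposited list has them.

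The strongest contacts lay close to the viewpoint on both sides. All of the 10 fragments with the highest mean share of counts were within 139 kb of it. The fragment 94808527 to 94811204, 2.01 kb away on the lower side, had the highest mean, 3.01% ± 2.31 (SD, n = 4). It held 1.63% (95% Wilson interval 1.51 to 1.77) and 2.60% (2.23 to 3.02) on day 0 and 1.42% (1.33 to 1.51) and 6.38% (5.59 to 7.28) on day 3. The days overlapped, because day 3 contributed both the lowest and the highest library. On the higher side, the fragment 94850687 to 94856332, 24.5 kb away, held 4.00% (3.79 to 4.21) and 1.65% (1.36 to 2.00) on day 0 and 3.85% (3.70 to 4.00) and 1.77% (1.37 to 2.29) on day 3. Replicate 1 was high and replicate 2 low on both days. Its neighbour 94842901 to 94850680, 16.7 kb away, had the same order, with 2.68% and 1.20% on day 0 and 3.46% and 1.81% on day 3.

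**Figure D1:**
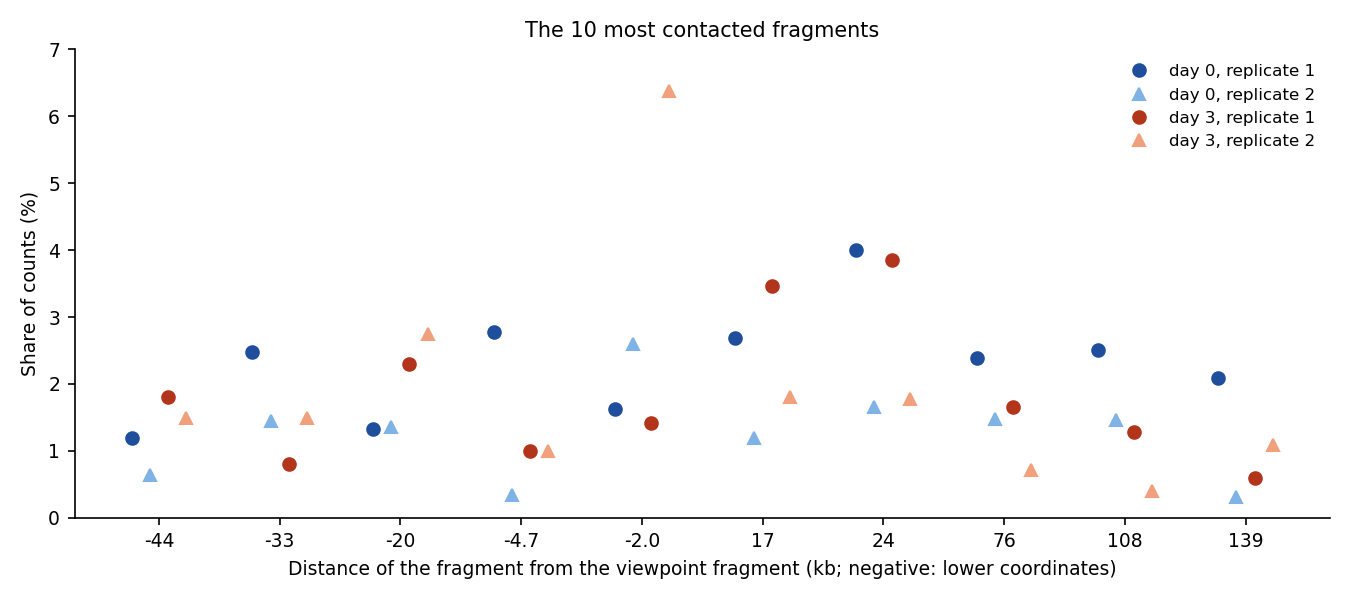
Share of the counts outside the viewpoint (%, vertical axis) for the 10 fragments with the highest mean share, ordered by their distance from the viewpoint fragment in kb (negative: lower coordinates). Each point is 1 library; colours give the day and shapes the replicate. Day 3 replicate 2 reaches 6.38% at the fragment 2.01 kb away, and at most of the fragments the libraries of the days overlap.

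At 3 of these 10 fragments the libraries of the days did not overlap. Over the 210 fragments of chromosome 11 that could be tested this held for 10.5% with day 3 higher and for 20.5% with day 3 lower. The fragment 94783432 to 94793098, 20.1 kb away on the lower side, held 1.33% (1.22 to 1.46) and 1.35% (1.09 to 1.67) on day 0 and 2.30% (2.19 to 2.42) and 2.74% (2.23 to 3.36) on day 3. Its day 0 libraries were nearly equal and both day 3 libraries were higher. The log2 difference, day 3 over day 0, was 1.08 ± 0.97 (SE), and edgeR's quasi-likelihood test gave an adjusted p of 0.997. The fragment 94759688 to 94769246, 44.0 kb away, was also higher in both day 3 libraries, with 1.20% and 0.642% on day 0 and 1.80% and 1.49% on day 3. In the opposite direction, the fragment 94934604 to 94939913, 108 kb away on the higher side, held 2.51% and 1.46% on day 0 and 1.28% and 0.405% on day 3. These 3 differences did not pass, with edgeR adjusted p of 0.997 each.

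Of the 25 fragments within 0.1 Mb that were kept, 20 had enough counts to be tested. Both day 3 libraries were higher at 2 and lower at 2, and the days overlapped at the other 21. The log2 differences of the tested 20 ran from -1.66 to 1.08, 9 of them above 0 and 11 below, and edgeR called 0 of them, against 1.43% of all 210 called higher and 0% lower. The lowest value belonged to 94924263 to 94928669, 98.1 kb away, with 0.791% and 0.353% on day 0 and 0.254% and 0.0311% on day 3. The neighbours of the viewpoint fragment were left out, and their counts are given as values. The lower neighbour, 94811211 to 94813209, held 943 and 4 counts on day 0 and 586 and 4 on day 3. The higher neighbour, 94826187 to 94838816, held 447 and 4, and 190 and 8. In replicate 2 of both days these 2 fragments thus had under 10 counts each, while 94808527 beside them had 162 and 205.

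Around the viewpoint the libraries traced one profile. Over the 41 windows of 100 kb within 2 Mb, Spearman's rho between pairs of libraries lay between 0.802 and 0.935 (n = 41 windows, which share their libraries and fragments), lowest in the pairs with day 3 replicate 2. The window from 94800001, which spans the viewpoint, held 14.6% and 6.50% on day 0 and 11.2% and 11.6% on day 3. The next one up, from 94900001, held 11.3% and 6.83% on day 0 and 6.59% and 4.08% on day 3, so that both day 3 libraries were below both of day 0. Its log2 difference was -0.91 ± 0.98 (SE; edgeR adjusted p 0.997).

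**Figure D2:**
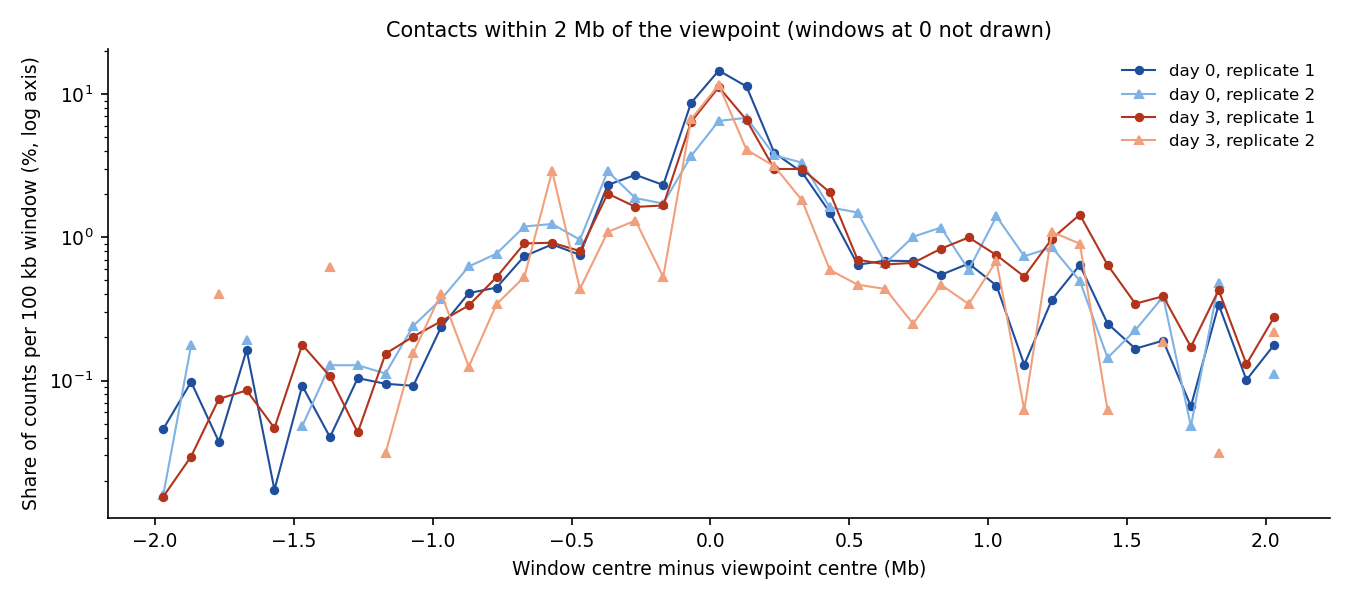
Share of the counts outside the viewpoint per 100 kb window (%, log axis) against the offset of the window's centre from the centre of the viewpoint fragment in Mb, for the 4 libraries of the OctSox line. The window that spans the viewpoint holds between 6.50% and 14.6%; windows with a count of 0, most of them in day 3 replicate 2, are not drawn and break the lines.

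By measured share, the windows that separated the days were mostly lower on day 3 close in. The few that were higher lay mainly 1 to 2 Mb away on the higher side. Of the 10 windows within 0.5 Mb, 0 were higher in both day 3 libraries, 5 were lower and 5 overlapped. Of the 10 at 0.5 to 1 Mb, 0 were higher and 3 lower. Among the 10 windows at 1 to 2 Mb on the lower side, 1 was higher and 4 were lower. All 4 had 0 counts in day 3 replicate 2, where a count of 0 allows up to 0.0934%. In the window from 92800001 this exceeds both day 0 shares, 0.0460% and 0.0160%. The Wilson upper limit for that 0 is 0.119%. It also exceeds the lower day 0 share of the windows from 92900001, 0.0978%, and from 93500001, 0.104%. A fall is thus not shown for these windows. Among the 11 on the higher side, 3 were higher and 0 lower. Over all 356 windows of chromosome 11 that could be tested, the libraries of the days did not overlap in 16.3%, with day 3 higher, and in 16.6%, with day 3 lower. Within 2 Mb, 4 of 41 were higher and 12 lower, and none of those tested passed. The counts of day 3 replicate 1 include 2314 on a single fragment 91266 kb away, 3.59% of that library, which lowers all its other shares. At the window from 94600001 the gap was narrow, with 1.72% in day 0 replicate 2 and 1.67% in day 3 replicate 1. The windows were not counted again without that fragment.

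Examples of both directions were chosen after their values were seen, as the windows with the highest shares. The window from 95000001 held 3.89% and 3.74% on day 0 and 3.00% and 3.14% on day 3, with a log2 difference of -0.44 ± 0.97 (SE). The window from 94400001, 313 kb away on the lower side, held 2.32% and 2.89% on day 0 and 2.02% and 1.09% on day 3. Higher on day 3 were 2 adjoining windows over 1 Mb up the chromosome. The window from 96000001 held 0.368% and 0.850% on day 0 and 0.979% and 1.09% on day 3, and that from 96100001 held 0.641% and 0.497% on day 0 and 1.44% and 0.903% on day 3. Their log2 differences were 0.76 ± 1.05 and 0.93 ± 1.05 (SE), with edgeR adjusted p of 0.997 each. In the second, the fragment 96165561 to 96174456 had the highest mean share. It held 25 and 1 counts on day 0 and 188 and 19 on day 3, a log2 difference of 3.31 ± 1.72 (SE) with an edgeR adjusted p of 0.997.

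The balance between the sides of the viewpoint set 1 library apart. Within 2 Mb the lower side, which has 51.9% of the fragments there, took 42.1% (95% Wilson interval 41.4 to 42.7) and 40.1% (38.4 to 41.9) of the counts on day 0. It took 36.5% in day 3 replicate 1 and 55.2% (52.6 to 57.9) in day 3 replicate 2. Both day 0 libraries thus lay between those of day 3. Within 0.1 Mb the lower side held 51.6% and 53.8% on day 0 and 45.6% and 73.6% on day 3. The day difference within 2 Mb was 4.77 percentage points with an exact permutation p of 1 (two-sided, 6 arrangements), and -4.58 points without day 3 replicate 2. The shallow day 3 replicate 2 of the YY1 line also had most of its counts on the lower side, 58.2% (55.4 to 61.0), against 41.7% (40.9 to 42.6) in replicate 1. On day 3 the shallower library was thus the higher one in both lines. On day 0 it was the lower one, with 40.1% against 42.1% in the OctSox line and 39.0% against 40.1% in the YY1 line. The fragment 94808527 to 94811204, 2.01 kb away, held 205 of the 740 lower-side counts within 2 Mb in OctSox day 3 replicate 2. In OctSox day 3 replicate 1 it held 914 of 12237, and 568 of 8839 and 162 of 1202 on day 0. In the YY1 line it held 1064 of 4912 and 253 of 707 on day 3. The shares without it were not computed.

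Counts fell with distance at about the same rate at both days. The slope of log10 count per fragment on log10 distance, taken from 20 kb to 20 Mb, was -1.20 and -0.97 on day 0 and -1.07 and -1.02 on day 3. The slopes of day 3 lay between those of day 0. The difference of the means was 0.036 (exact permutation p = 1, two-sided).

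By distance, the days separated in the shares over 20 Mb away and at 0.1 to 1 Mb. Contacts over 20 Mb away took 18.1% and 18.9% of the counts on day 0 and 22.3% and 32.8% on day 3, which is 18.5% ± 0.527 and 27.5% ± 7.43 (SD, n = 2 each). At 0.1 to 1 Mb the shares were 30.3% and 30.5% on day 0 and 25.5% and 18.4% on day 3, a difference of -8.42 percentage points against 9.03 for the far contacts. Both had an exact permutation p of 0.333 (two-sided), the smallest that 2 libraries against 2 can give. Without day 3 replicate 2 they were -4.88 and 3.78 points. With each count capped at 5, the shares at 0.1 to 1 Mb were 12.8% and 22.1% on day 0 and 9.98% and 16.4% on day 3, so that the days overlapped, and the difference was -4.23 points. With each fragment counted once it was -3.12 points (exact permutation p = 0.667 for both). The other bands overlapped between the days. Up to 0.1 Mb the libraries held 26.7% and 12.3% on day 0 and 19.7% and 19.2% on day 3, so that day 0 had both the highest and the lowest value. At 1 to 5 Mb they held 7.43% and 11.4%, then 12.2% and 9.37%, and at 5 to 20 Mb 17.5% and 26.9%, then 20.3% and 20.2%.

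**Figure D3:**
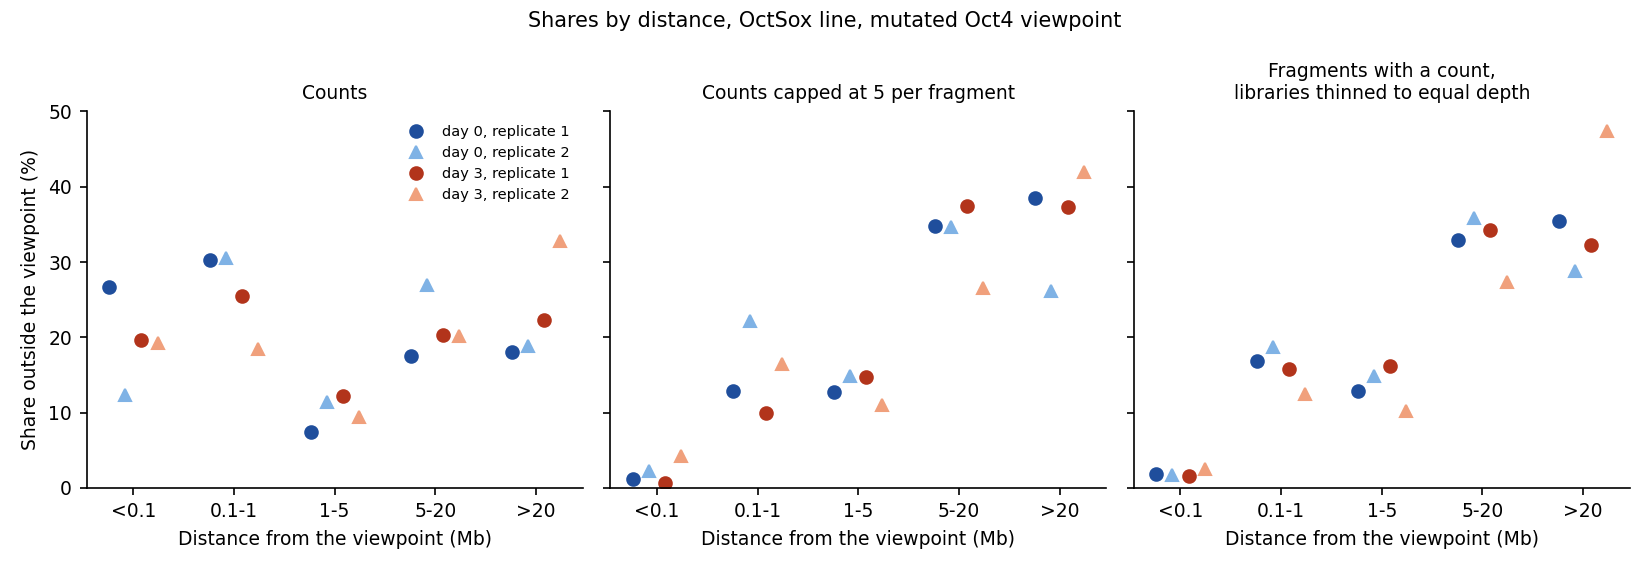
Share (%, vertical axis) by distance from the viewpoint in Mb for the 4 libraries of the OctSox line, as counts (left), as counts with each fragment capped at 5 (middle), and as fragments with a count after all libraries were thinned to 3212 counts (right). In the left panel both day 3 libraries lie above both day 0 libraries over 20 Mb; in the middle and right panels day 3 replicate 1 lies between the day 0 libraries there.

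In the deeper day 3 library a single fragment made up much of the excess over day 0. The fragment 3544248 to 3546901, 91266 kb away at the other end of the chromosome, had 2314 counts in day 3 replicate 1 and 0 in the other 3 libraries. It made up 3.59% (95% Wilson interval 3.45 to 3.74) of that library and 16.1% of its counts over 20 Mb. It had 0 counts in all 4 libraries of the YY1 line too. Without it, a choice made after the values were seen, the far share of day 3 replicate 1 was 19.4%, against 18.1% and 18.9% on day 0 and 32.8% in day 3 replicate 2, and the day difference was 7.59 points (exact permutation p = 0.333, two-sided). With each fragment's count capped at 5, the far shares were 38.5% and 26.2% on day 0 and 37.3% and 41.9% on day 3, and the days overlapped. Thinned to the 3212 counts of the shallowest library, the libraries had 413 and 281 far fragments with a count on day 0 and 423 and 361 on day 3 (unthinned 1355 and 400, then 1775 and 361). The thinned values overlapped as well, with a difference of 45.0 fragments and an exact permutation p of 0.667 (two-sided).

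Day 3 replicate 2 was high in the far share by every one of these measures but the thinned number of fragments. Of its fragments with a count at 3212 counts, 47.4% lay over 20 Mb away, against 35.5% and 28.8% on day 0 and 32.2% in day 3 replicate 1. At that depth it had 762 fragments with a count in all, against 1162 and 978 on day 0 and 1311 in day 3 replicate 1. Its counts thus lay on fewer fragments than an equal number of counts from any other library. At 0.1 to 1 Mb it had 95 such fragments, against 197 and 183 on day 0 and 207 in day 3 replicate 1.

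The far contacts were not spread evenly along the chromosome. Of 78 windows of 1 Mb wholly over 20 Mb away, an even spread would give each 1.28% of the far counts. Windows from 68000001 to 71000000 and from 115000001 to 119000000 made up 7 of the 10 with the highest mean. The window from 70000001 held 3.32% and 6.46% of the far counts on day 0 and 3.17% and 3.42% on day 3. That from 118000001 held 3.18% and 5.36%, then 3.76% and 2.94%. All 7 were above the even share in all 4 libraries. They were picked by their mean in these same libraries. Their centres lie at -26.3 to -24.3 Mb and at 20.7 to 23.7 Mb from the viewpoint, among the nearer of the far windows, which reach -91.3 Mb. The even share takes no account of distance or of the number of fragments in a window. The days overlapped in 6 of them, and the window from 68000001 held 3.48% and 3.15% on day 0, then 2.91% and 2.37%. The highest mean, 7.08% ± 7.20 (SD, n = 4), belonged to the window from 3000001, which holds the single fragment named above, with 3.27% and 1.96% on day 0 and 17.7% and 5.41% on day 3. Without that fragment its share in day 3 replicate 1 was 1.84%. Over the 78 windows Spearman's rho was 0.726 between the day 0 libraries, 0.433 between those of day 3, and 0.768 between replicate 1 of the days. The pairs that include day 3 replicate 2 had the lowest values, from 0.332 to 0.433.

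**Figure D4:**
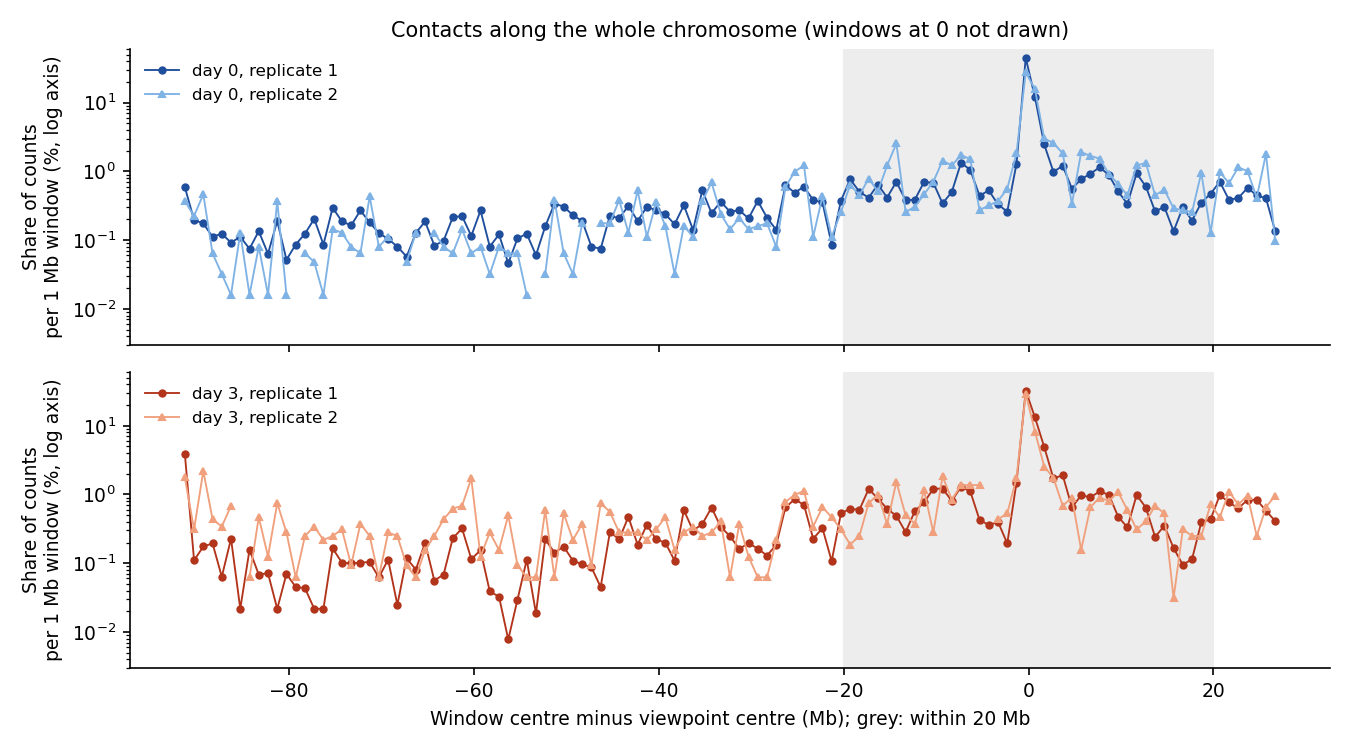
Share of the counts outside the viewpoint per 1 Mb window (%, log axis) against the offset from the viewpoint's centre in Mb, with day 0 above and day 3 below; points are windows and each line is 1 library. Grey marks the range within 20 Mb. The leftmost window on day 3 stands at 3.93% in replicate 1 and 1.77% in replicate 2, and windows with a count of 0 are not drawn.

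Tested one by one, few fragments were called. The lack of a call does not show that a fragment was alike at both days. The filter on low counts left 210 fragments. EdgeR called 3 higher on day 3 (1.43%) and 0 lower (0%) at an adjusted p under 0.05, with 9 at an unadjusted p under 0.05, and DESeq2 called 0. The log2 differences were above 0 at 88 and below 0 at 122, with a median of -0.22. The libraries of the days did not overlap in 22 fragments with day 3 higher (10.5%) and in 43 with day 3 lower (20.5%).

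The 3 called fragments were far from the viewpoint, 2 on the lower side and 1 on the higher side. Each had 0 counts in both day 0 libraries and 2 counts in day 3 replicate 2. The fragment 85256152 to 85258451, 9555 kb away, had 32 counts in day 3 replicate 1, and its day 3 shares were 0.0497% (95% Wilson interval 0.0352 to 0.0701) and 0.0623% (0.0171 to 0.227). The fragment 76046580 to 76050286, 18763 kb away, had 36, and 119247905 to 119250911, 24422 kb away, had 39. With the libraries of each day pooled and a floor of 3 counts for day 0, the first was 6.87-fold higher, the second 7.68-fold and the third 8.28-fold. These values allow for counting error in the 0 of day 0 only. They leave out counting error on day 3 and the spread between replicates, and replicate 1 dominates both pools. EdgeR gave adjusted p of 0.00306, 0.00724 and 0.0125, and DESeq2 0.995 for each. With 0 counts on day 0, these fragments passed the filter on low counts through their day 3 counts alone, so they were selected by the group in which they are high. Without the filter edgeR called 0 fragments, and the adjusted p of these 3 was 0.566. Without day 0 replicate 2 or without day 3 replicate 2 they had log2 differences from 7.03 to 7.56 and did not pass. Without day 0 replicate 1 or without day 3 replicate 1 they were not among the tested fragments. In day 0 replicate 2 a count of 0 allows up to 0.0481%, close to the day 3 shares of these fragments. Of the next fragments by p, 95552039 to 95554135, 726 kb away, had 1 and 0 counts on day 0 and 33 and 2 on day 3, with an edgeR adjusted p of 0.0573. In the other direction, 68717845 to 68719674, 26094 kb away, had 27 and 4 counts on day 0 and 0 and 0 on day 3, with 0.0554.

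In windows of 100 kb, edgeR called 1 of 356 higher on day 3 (0.281%) and 0 lower (0%), and DESeq2 also called 1. The unadjusted p was under 0.05 for 10. It was the window from 3500001, with 11 and 1 counts on day 0 and 2319 and 3 on day 3. Its log2 difference was 6.09 ± 1.43 (SE), and the adjusted p was 0.0340 in edgeR and 0.00633 in DESeq2. Of the 2319 counts, 2314 belong to the single fragment 3544248 to 3546901, and without it edgeR called 0 windows. Without day 0 replicate 1 or without day 0 replicate 2 it was not called, and without day 3 replicate 1 edgeR called 4 windows that did not include it. The falls with the smallest p did not pass. The window from 107800001, 12974 kb away, held 43 and 10 counts on day 0 and 0 and 0 on day 3 (edgeR adjusted p 0.232), and that from 57200001 held 58 and 10, then 2 and 0 (edgeR adjusted p 0.483).

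In windows of 1 Mb, edgeR called 0 of 119 in either direction (0% higher and 0% lower), and DESeq2 called 0. The unadjusted p was under 0.05 for 4. Day 3 was higher in both libraries in 21 windows (17.6%) and lower in 8 (6.72%). The window from 3000001 came closest, with 0.593% and 0.369% on day 0 and 3.93% and 1.77% on day 3 and a log2 difference of 2.50 ± 0.78 (SE; edgeR adjusted p 0.106). Without the fragment 3544248 to 3546901 its log2 difference was 0.74 (edgeR adjusted p 0.997), and with counts capped at 5 it was 0.86. The window from 121000001, at the higher end of the chromosome, held 0.135% and 0.0962% on day 0 and 0.410% and 0.965% on day 3 (edgeR adjusted p 0.390). The window from 34000001 had an edgeR adjusted p of 0.106 as well, but only day 3 replicate 2 was high, at 1.71% against 0.115%, 0.0642% and 0.115%. Among windows with a negative difference, the smallest p belonged to the one from 43000001, with 0.339% and 0.385% on day 0 and 0.143% and 0.0623% on day 3 (edgeR adjusted p 0.990). In the YY1 line the window from 3000001 was also higher in both day 3 libraries. It held 0.103% and 0.159% there on day 0 and 0.492% and 2.62% on day 3. The interaction of line and day was not tested in windows of 1 Mb.

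The day differences of the OctSox line were set beside those of the YY1 line, whose libraries held 252528 and 40785 counts outside the viewpoint on day 0 and 26425 and 2820 on day 3. By band, the YY1 line changed by 5.53 percentage points up to 0.1 Mb, by -14.0 at 0.1 to 1 Mb, by -1.66 at 1 to 5 Mb, by -3.16 at 5 to 20 Mb and by 13.3 over 20 Mb. In the OctSox line these changes were -0.0372, -8.42, 1.38, -1.96 and 9.03. The differences between the lines had exact permutation p-values from 0.333 to 0.889 over the 5 bands (two-sided, 36 arrangements, smallest possible 0.0556), each 0.889 after Benjamini-Hochberg adjustment. In edgeR's interaction test 0 of 659 fragments (0%) were called for a difference in their day effect. The unadjusted p was under 0.05 for 36, and DESeq2 called 0.

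In windows of 100 kb the interaction test called 1 of 689 (0.145%). The unadjusted p was under 0.05 for 32, and DESeq2 called 0. That window, from 40600001, had 22 counts in OctSox day 0 replicate 1 and 0 in the other 3 OctSox libraries. In the YY1 line it had 1 and 0 counts on day 0 and 112 and 0 on day 3. Each line thus contributed a single library with more than 1 count. The fragment 94808527 to 94811204 beside the viewpoint, with shares of 0.847% and 0.684% on day 0 and 4.03% and 8.97% on day 3 in the YY1 line, had a log2 difference in day effect of 1.84 ± 1.06 (SE), YY1 over OctSox, with an edgeR adjusted p of 0.777.

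Few far fragments were seen in more than 1 library. On day 0, 3196 and 1309 fragments had a count and 489 had one in both replicates, which is 15.3% and 37.4% of each list. On day 3, 4393 and 762 had a count and 314 were shared, 7.15% and 41.2% of each. Fragments with a single count made up 27.4% and 39.5% of those detected on day 0 and 23.1% and 45.1% on day 3. A count in any library was found for 7221 fragments, and 114 had one in all 4. These were 17 of the 25 fragments within 0.1 Mb, 67 of 426 at 0.1 to 1 Mb, 12 of 2079 at 1 to 5 Mb, 8 of 7697 at 5 to 20 Mb and 10 of 21635 over 20 Mb.

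The 10 far fragments with a count in every library had low counts, at most 9 and 4 on day 0 and 40 and 7 on day 3. An example is 63187419 to 63192477, 31621 kb away, with 7 and 4 counts on day 0 and 9 and 7 on day 3. Another, 115217364 to 115220473, 20391 kb away, had 1 and 2 on day 0 and 40 and 4 on day 3, a log2 difference of 2.76 ± 2.62 (SE; edgeR adjusted p 0.997). Within 1 Mb, the 84 fragments with a count in all 4 libraries had a median length of 4755 bp and a median distance of 261 kb, against 2365 bp and 738 kb for the 53 without a count in any. Fragment length and distance thus moved with detection, and their parts in it were not tested.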

How the data were processed

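The authors deposited count tables, with a raw number of reads for each HindIII fragment of chromosome 11, and a list of fragment positions. Alignment used Bowtie and mm9, per the submitters' processing notes, and the sources used here do not give a version or say how reads were counted and filtered. Counts were placed on the list by order. The labels name no molecular identifiers that would remove PCR duplicates. Intervals and floors thus describe the counting error of reads alone, and the error over ligations can be wider. The viewpoint was inferred as the fragment with the highest count pooled over the libraries of both lines. Shares are percentages of the counts outside the viewpoint fragment and 1 neighbour on either side.

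Fragments and windows of 100 kb and 1 Mb were tested with edgeR 4.0.16 (TMM scaling, filterByExpr with a minimum count of 10, quasi-likelihood test, Benjamini-Hochberg adjustment over all tested, threshold 0.05) in R 4.3.3, with the 4 OctSox libraries in the fit, and with the 8 libraries of both lines for the interaction of line and day. DESeq2 1.42.0 was an alternative. Shares, slopes and thinned numbers of fragments were compared by exact permutation over libraries. Thinning gives the expected number of fragments with a count at 3212 counts. Scripts were tested on simulated data. Named were all fragments and windows past the threshold, the 10 fragments and 5 windows of 100 kb with the highest mean share, and those with the smallest p in each direction; any other is said to be chosen after its values were seen, or is the largest count of a library or a fragment counted in all 4. The members and lists were chosen with earlier results of these data known.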

Additional observations from a re-analysis of the deposited data

Results flagged for a closer look

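The 100 kb window from 40600001 was called in the interaction test of line and day (edgeR adjusted p 0.00122). Its log2 difference in day effect was 16.10 ± 3.36 (SE), YY1 over OctSox. The call rests on 1 library in each line, with 22 counts in OctSox day 0 replicate 1 and 112 in YY1 day 3 replicate 1. Every other library had 0 or 1 count, so the size of the log2 value depends on counts of 0. DESeq2 did not call the window.

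Only the named fragments and windows were searched for measured shares of the days that separated in opposite directions in the 2 lines. This was so at 3 fragments and 1 window of 1 Mb. Many of those searched had been named for a small p in the OctSox line, and the share over all fragments and windows was not determined. The number is thus no measure of how often the lines differ. The fragment from 85256152 was higher on day 3 in the OctSox line and was at 0 counts in both day 3 libraries of the YY1 line, against 0.00475% and 0.0245% on day 0, a difference in the day change of -0.0706 percentage points, YY1 minus OctSox (edgeR interaction adjusted p 0.677). For the fragment from 119247905 it was -0.0746 points (edgeR interaction adjusted p 0.777), and for the fragment from 95552039 it was -0.0999 points (edgeR interaction adjusted p 0.780). A count of 0 allows up to 0.0114% and 0.106% in these YY1 libraries, and the latter also holds for the 0 that the other fragments have in YY1 day 3 replicate 2, so a fall in the YY1 line is not shown for any of the 3. The 1 Mb window from 9000001 had lower measured shares on day 3 in the OctSox line, from 0.112% and 0.128% to 0.0217% and 0. The OctSox log2 difference of -2.73 ± 1.70 (SE) did not pass (edgeR adjusted p 0.990). The Wilson upper limit for the 0 in day 3 replicate 2 is 0.119%, above the 0.112% of day 0 replicate 1. In the YY1 line the measured shares were higher on day 3, from 0.00990% and 0.0270% to 0.117% and 0.142%. These YY1 shares rest on 25 and 11 counts on day 0 and on 31 and 4 on day 3. The difference in the day change between the lines was 0.221 points and was not tested.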

How the results depend on the processing

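The libraries were shallow, and the shallowest held 3212 counts outside the viewpoint. Replicates also differed where counts were high. The window from 94800001 held 14.6% and 6.50% on day 0, with an SE of 0.98 for its log2 difference. What limits the calls was not tested. All values are day 3 against day 0 in the OctSox line unless a line is named, and the cause of a change was not tested. The 3 called fragments were again called with RLE size factors, with total-count scaling and without the largest far fragment. Their number was 0 without the filter, with DESeq2, with 20 kb left out and with all 8 libraries in the fit, and 5 with nothing left out. The called 100 kb windows numbered 0 with RLE size factors, without the filter, with 20 kb left out, with all 8 libraries, with counts capped at 5 and without the largest far fragment, which was added after the data were seen. Total-count scaling called 2 windows of 1 Mb, and the window interaction fell to 0 with DESeq2. With the replicate block, the calls numbered 0 for fragments, for windows of 100 kb and for the window interaction, and the fragments from 94806773 and 94965511 turned to log2 values of 0.18 and 0.15. The block changed no other call. The replicate numbers were not taken as pairs, since the labels do not say that a number marks a shared day or culture, and same-numbered deviations correlated at 0.0602 over 356 windows. The fragment test with counts capped at 5 could not be fitted and was not run.

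The sign of several small differences turned. With total-count scaling the fragment from 94850687 stood at 0.00, and the windows from 94800001 and 94700001 at 0.10 and 0.08; the block gave these windows 0.12 and 0.10, and the cap 0.43 and 0.21. With fragments counted once the difference was 0.472 points up to 0.1 Mb, -1.66 at 1 to 5 Mb, -1.29 for the lower side and -0.036 for the slope. With the cap these were 0.766, -0.951, -1.41 and -0.023. Without the largest far fragment the band up to 0.1 Mb stood at 0.33. Thinned fragments at 1 to 5 Mb differed by 1.18 when thinned to 0.5 of the depth, by 0.979 with nothing left out and by 0.463 without the largest far fragment. The difference between the lines at 0.1 to 1 Mb turned to 6.80 counted once and to 9.15 with the cap, and over 20 Mb to -0.918 with the cap.

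Leaving out 1 library at a time gave 0 to 1 called fragments, 0 to 4 windows of 100 kb, 0 to 1 windows of 1 Mb and 0 to 1 window interactions. The log2 values ran from -0.07 (without day 3 replicate 2) to 1.37 for the fragment from 94808527, from -1.02 to 1.40 for 94850687, from -0.45 to 1.75 for 94842901, from -1.75 to 0.34 for 94901753, from -1.23 to 0.00 for 94775552, from -1.46 to 2.03 for 94806773 and from -1.44 to 1.80 for 94965511. For windows they ran from -0.81 to 1.18 at 94800001, from -1.72 to 0.08 at 94900001, from -0.86 to 1.20 at 94700001, from -0.79 to 0.10 at 95000001 and from -1.17 to 0.05 at 95100001. Band differences ran from -7.24 to 7.16 points up to 0.1 Mb, from -12.0 to -4.88 at 0.1 to 1 Mb, from -0.612 to 3.38 at 1 to 5 Mb, from -6.69 to 2.77 at 5 to 20 Mb and from 3.78 (without day 3 replicate 2) to 14.3 (without day 3 replicate 1) over 20 Mb. The lower side ran from -4.58 to 14.1 points and the slope from -0.081 to 0.153. Thinned fragments ran from -2.12 to 3.01, -94.9 to 17.5, -69.2 to 65.5, -158 to 81.4 and -20.6 to 111 in the bands from near to far, and from -308 to 241 in all. The difference between the lines ran from -1.64 to 12.8 points up to 0.1 Mb, from -5.94 to 3.53 at 5 to 20 Mb and from -0.961 to 9.55 over 20 Mb.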
